A study of Mus musculus with 9 samples.

Results

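Integrins and laminins are the receptors and ligands that anchor cells to the basement membrane, and their transcripts were followed across the boundary between the 2 epithelia of the mouse stomach. Members were the probe sets carrying a single gene symbol made of Itga or Itgb followed by a number or letter code, or of Lama, Lamb or Lamc followed by a number. The rule found 76 of 45101 probe sets on the array, 57 for integrins and 19 for laminins. They represented 35 genes, 25 integrin subunits and 10 laminin chains, and all 35 were among the 13637 genes tested. A filter on low signals kept 61 of the 76 probe sets, and each gene was read from its brightest kept probe set. Itga11 and Itgad were not analysed here.

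The 9 arrays came from healthy female C57Bl/6 mice aged 3 months that received no treatment. Neighbouring stripes of stomach, 600 to 800 µm wide, were cut from 9 animals. The junction stripe straddled the line where the squamous and glandular linings meet, the forestomach stripe lay on its squamous side and the corpus stripe on its glandular side. Stripes of 3 mice were pooled before RNA extraction, which gave series 1, 2 and 3 with 1 junction, 1 forestomach and 1 corpus array each, so n = 3 pools per zone throughout. Values are given below in the order of the series, as MAS5 signals, a linear measure of spot brightness with a trimmed mean of 200 on every array. Signals of different probe sets are not on one scale, so levels were compared between zones within a gene and never between genes. Because each stripe is a mixture of tissues, fewer cells of a type and less RNA per cell cannot be told apart.

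The labels call each sample epithelium, but smooth muscle transcripts were present in all of them. The summed signal of 10 smooth muscle markers was 24529 to 29302 in the junction, 57214 to 62697 in the forestomach and 21560 to 31458 in the corpus. All 10 were higher in the forestomach than in the corpus and lower in the junction than in the forestomach, and 0 of 10 passed between junction and corpus. Among all genes tested, 30.0% were higher in the forestomach than in the corpus and 23.1% lower in the junction than in the forestomach. Between junction and corpus, 25.0% of all genes passed. The summed signal of 8 squamous basal cell markers was 15890 to 22195 in the junction, 18506 to 21955 in the forestomach and 1241.4 to 1357.2 in the corpus. The 10 glandular markers summed to 95039 to 108830 in the junction and 93041 to 131390 in the corpus. On the forestomach arrays their sum was 1018.7, 10857 and 15183, so forestomach arrays 2 and 3 held more glandular transcript than array 1. Results are given without those 2 arrays where that ends a call. The 5 skeletal muscle markers tested also differed between arrays of a zone. Their sum was 1703.6, 260.5 and 192.4 in the junction, 671.9, 650.7 and 2332.8 in the forestomach and 141.7, 306.3 and 231.4 in the corpus. The part of skeletal muscle in the members' levels was not tested.

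An integrin is a dimer of 1 alpha and 1 beta subunit, and the pair decides which matrix protein is bound. A laminin is a trimer of 1 alpha, 1 beta and 1 gamma chain, and different trimers line epithelium, muscle, vessels and nerve. In stratified epithelium, the dimer of Itga6 and Itgb4 sits in hemidesmosomes, holds basal cells to a laminin that contains the Lama3 and Lamb3 chains, and links through plectin and dystonin to keratins. Other dimers contain Itgb1 or Itgav and bind laminins, collagens, fibronectin or latent TGF-beta, and a further group is confined mainly to leukocytes.

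Calls in these families were fewest between junction and corpus and more frequent where the forestomach was compared with a neighbour. Calls over all genes tested had the same order. Between junction and corpus, 5 of the 35 genes were higher in the junction, 1 was lower and 29 did not pass the test, a share of 17.1% called against 25.0% of all genes tested (13.2% higher and 11.8% lower). The median log2 difference was 0.16 over the members and -0.05 over all genes. Between junction and forestomach, 6 were higher in the junction, 11 were lower and 18 did not pass, 48.6% called against a background of 44.6% (21.5% higher and 23.1% lower), with medians of -0.02 and -0.04. Between forestomach and corpus, 14 were higher in the forestomach, 4 were lower and 17 did not pass, 51.4% called against 59.9%, with medians of 0.43 and -0.01. In that last comparison the members called higher made up 40% of the list, against 30.0% of all genes, and those called lower 11.4%, against 29.9%. Calls rest on limma's moderated test on log2(signal + 9.8), with Benjamini-Hochberg adjustment over all 13637 genes and a threshold of 0.05. The arrays of the 2 zones did not overlap for 11 members between junction and corpus, 22 between junction and forestomach and 21 between forestomach and corpus, shares of 31.4%, 62.9% and 60%, against 43.8%, 55.8% and 66.4% of all genes. These comparisons share arrays, so their calls are not independent of each other. Leaving out single arrays or series gave 3 to 5 genes higher in the junction than in the corpus and 7 to 12 genes lower in the junction than in the forestomach. The lowest of these counts, 3 and 7, both came without series 1 and again without series 3. Without forestomach arrays 2 and 3 together, 6 genes were lower in the junction than in the forestomach. Median centring of the arrays moved the median of all genes by 0.10 between junction and corpus. Under it the share of higher calls over all genes was 70.7%, in place of 52.8%, and 8 members were higher and 0 lower.

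**Figure D1:**
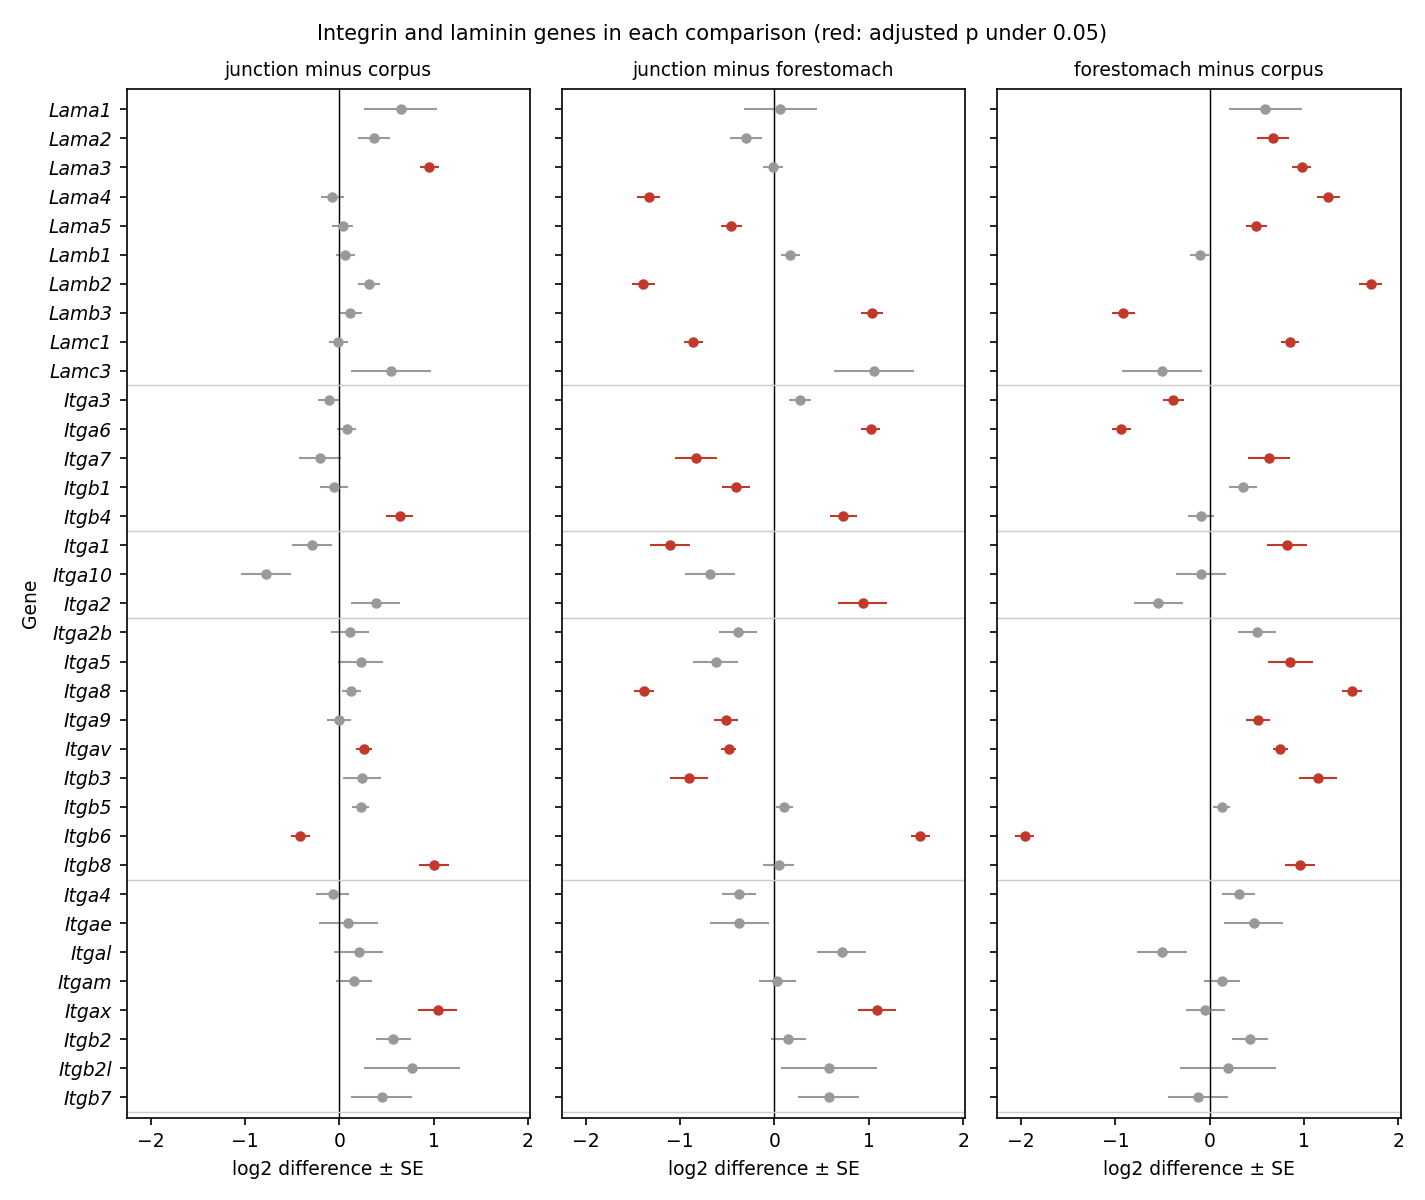
Log2 difference of each of the 35 integrin and laminin genes (rows), with bars of 1 SE from the fit over 9 arrays. The panels give junction minus corpus, junction minus forestomach and forestomach minus corpus. Red points passed the test and grey points did not. Junction minus corpus values lie nearer to 0 for most genes, with 6 red points, against 17 and 18 in the other panels. These are 17.1%, 48.6% and 51.4% of the members, beside 25.0%, 44.6% and 59.9% of all genes tested.

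Promoters are shown for the members whose upstream sequence held a binding motif searched for because it belongs to factors of squamous epithelium or smooth muscle. RefSeq transcription starts on build GRCm38.p6 were available for 23 member genes, with 26 starts, and the 250 bases before each start were searched on both strands. The motifs were the AP-1 site (TGANTCA, where N is any base), the CArG box of serum response factor, a pair of p53-family half-sites (the motif class that p63 also binds) and the GC box (GGGCGG). The AP-1 site was found for 1 of the 23 genes and in 6.75% of 32851 promoters, the CArG box for 2 genes and in 1.47%, the p53-family pair for 2 genes and in 5.84%, and the GC box for 8 genes and in 32.7%. Genes were counted if any of their starts held the motif, while the percentages count every start separately, so these figures are in different units. Below, capitals mark the p53-family pair in the first Itgb6 start, the CArG box in the other Itgb6 start and in Lama2, and the p53-family pair and then the AP-1 site in Itgax; these motifs do not overlap in the sequences shown. Itgb6 and Lama2 were the genes with a CArG box, and Itgax and Itgb6 those with a p53-family pair. A match of letters is a description and not a site shown to be bound.
Itgb6, first start, chr2:60722604-60722853, minus strand: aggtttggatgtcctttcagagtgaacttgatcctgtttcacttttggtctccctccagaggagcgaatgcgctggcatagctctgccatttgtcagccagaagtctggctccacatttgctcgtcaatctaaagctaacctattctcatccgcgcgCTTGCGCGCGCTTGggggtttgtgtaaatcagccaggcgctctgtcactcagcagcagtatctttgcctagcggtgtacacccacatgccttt
Itgb6, other start, chr2:60673694-60673943, minus strand: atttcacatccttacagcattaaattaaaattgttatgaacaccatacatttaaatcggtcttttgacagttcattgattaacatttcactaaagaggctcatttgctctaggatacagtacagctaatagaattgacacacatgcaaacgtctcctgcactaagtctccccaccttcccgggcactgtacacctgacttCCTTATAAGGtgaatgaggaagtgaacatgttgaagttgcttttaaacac
Itgax, chr7:128129300-128129549, plus strand: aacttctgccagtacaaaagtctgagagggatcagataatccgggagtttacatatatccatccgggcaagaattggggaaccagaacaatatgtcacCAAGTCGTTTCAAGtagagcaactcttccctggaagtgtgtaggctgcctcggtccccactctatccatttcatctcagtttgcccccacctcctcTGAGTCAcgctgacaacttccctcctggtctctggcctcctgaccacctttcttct
Lama2, chr10:27616943-27617192, minus strand: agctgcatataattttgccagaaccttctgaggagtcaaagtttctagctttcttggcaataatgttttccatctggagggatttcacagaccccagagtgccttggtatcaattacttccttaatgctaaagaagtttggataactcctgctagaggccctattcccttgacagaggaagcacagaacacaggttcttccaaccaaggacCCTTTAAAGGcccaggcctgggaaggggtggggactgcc

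Among the laminin chains, Lama3 and Lamb3, chains of the hemidesmosome laminin, moved in opposite directions between forestomach and corpus. Lama3, the alpha chain of that laminin, had signals of 181.6, 219.9 and 216.3 on the junction arrays, 208.4, 221.8 and 194.3 on the forestomach arrays and 107.8, 96.1 and 99.4 on the corpus arrays. Junction and forestomach arrays overlapped, and all 6 lay above the corpus arrays. The junction was higher than the corpus by 0.96 ± 0.10 on the log2 scale (SE; adjusted p = 0.000309), 1.94-fold, and the forestomach by 0.97 ± 0.10 on the log2 scale (SE; adjusted p = 5.5e-05), 1.96-fold, while junction and forestomach differed by -0.02 ± 0.10 (SE; adjusted p = 0.903). Lamb3, the beta chain of the same laminin, had signals of 461.1, 540.6 and 569.3 on the junction arrays, 250, 280.9 and 222.2 on the forestomach arrays and 468.1, 512.8 and 461.4 on the corpus arrays. Here the forestomach arrays lay below all the others, and junction and corpus overlapped. Lamb3 was higher in the junction than in the forestomach by 1.03 ± 0.12 on the log2 scale (SE; adjusted p = 0.000191), 2.05-fold, and lower in the forestomach than in the corpus by 1.89-fold (adjusted p = 0.00019). The junction minus corpus difference was 0.12 ± 0.12 (SE; adjusted p = 0.513). Forestomach array 1, with a glandular marker sum of 1018.7, had a Lamb3 signal of 250, between those of the other 2 forestomach arrays. Both genes kept these calls in all 23 alternatives, which set no minimum log2 difference.

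Laminin chains known from muscle, vessel and nerve basement membranes were higher in the forestomach on their brightest probe sets. Lamb2, a beta chain of muscle and of synaptic basement membranes, had signals of 191.1, 186.6 and 150.3 on the junction arrays, 483.2, 453.1 and 491.4 on the forestomach arrays and 133.7, 157.5 and 126.5 on the corpus arrays. The 3 forestomach arrays stood far above the other 6. Lamb2 was 3.27-fold higher in the forestomach than in the corpus, a difference of 1.71 ± 0.12 on the log2 scale (SE; adjusted p = 4.25e-06), and 2.63-fold lower in the junction than in the forestomach (adjusted p = 3.94e-05). Its junction minus corpus difference was 0.32 ± 0.12 (SE; adjusted p = 0.0899), which passed with median centring (adjusted p = 0.0285) and without junction array 3 (adjusted p = 0.0468). Lama4, the alpha chain of vessel and muscle laminins, had 258.6, 253.3 and 245.9 on the junction arrays, 729.2, 549.7 and 688.8 on the forestomach arrays and 277, 284.6 and 239.5 on the corpus arrays. Junction and corpus arrays overlapped and the forestomach arrays lay above both. It was 2.39-fold higher in the forestomach than in the corpus (adjusted p = 3.14e-05) and 2.52-fold lower in the junction than in the forestomach (adjusted p = 5.59e-05). On a dimmer Lama4 probe set the forestomach minus corpus difference was -0.10 (adjusted p = 0.624 over all probe sets). Its signals were 86.3, 57.4 and 92.7 on the junction arrays, 108.1, 90.5 and 98.1 on the forestomach arrays and 99.5, 114.2 and 106.8 on the corpus arrays. With the mean of both probe sets the forestomach minus corpus difference of Lama4 was 0.58 (adjusted p = 0.00294). Lamc1, the gamma chain of most laminins, had 384.5, 352.3 and 342.6 on the junction arrays, 636.3, 733.4 and 616.6 on the forestomach arrays and 350.5, 378.9 and 356.9 on the corpus arrays on its brightest probe set. It was 1.80-fold higher in the forestomach than in the corpus (adjusted p = 8.86e-05) and 1.81-fold lower in the junction than in the forestomach (adjusted p = 0.000178), but with the mean of its 2 kept probe sets neither passed (adjusted p = 0.27 and 0.104). On the dimmer Lamc1 probe set the signs were opposite. There forestomach minus corpus was -0.45 and junction minus forestomach 0.20 (adjusted p = 0.107 and 0.488 over all probe sets). The direction given for Lamc1 thus rests on its brightest probe set.

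The smooth muscle marker sum had the same order as the brightest probe sets of Lamb2, Lama4 and Lamc1, with the forestomach arrays above all others. The part of smooth muscle in these differences was not tested. Fibroblast markers summed to 22496 to 23980 in the junction, 30801 to 38644 in the forestomach and 16240 to 18762 in the corpus. Of these 8 markers, 7 were higher in the forestomach than in the corpus, 87.5% against 30.0% of all genes. Nerve and glia markers summed to 433.1 to 527.5 in the junction, 860.4 to 979.7 in the forestomach and 589.9 to 633.4 in the corpus. The endothelial sum was 1715.8 to 1969.7 in the junction, 1658.9 to 1772.1 in the forestomach and 1722.3 to 2173.1 in the corpus, so vessel markers did not share the order of the smooth muscle markers.

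Lama5, the broadest epithelial alpha chain, had signals of 310.8, 327.2 and 260.2 on the junction arrays, 449.3, 376.1 and 417.4 on the forestomach arrays and 287.1, 302.1 and 283.4 on the corpus arrays. The forestomach arrays were the highest, by a smaller margin than for Lama4. Lama5 was 1.41-fold higher in the forestomach than in the corpus (adjusted p = 0.00466) and 1.37-fold lower in the junction than in the forestomach (adjusted p = 0.00983). Without series 1 neither difference passed (adjusted p = 0.0684 and 0.092), and without series 3 the difference of junction and forestomach did not (adjusted p = 0.1). Lama2, the alpha chain of muscle and nerve laminins, had 281.6, 186.5 and 278.6 on the junction arrays, 313, 273.2 and 328.7 on the forestomach arrays and 176.6, 210.8 and 176.2 on the corpus arrays. Its junction arrays spread widely, with array 2 among the corpus values and the others near the forestomach. Lama2 was 1.59-fold higher in the forestomach than in the corpus (adjusted p = 0.00736), a call lost without series 1 (adjusted p = 0.0707), without series 3 (adjusted p = 0.0815) or without forestomach arrays 2 and 3 (adjusted p = 0.0593). Junction minus corpus was 0.37 (adjusted p = 0.139), and passed without junction array 2 (adjusted p = 0.0232).

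Lamb1, the beta chain of the most widespread laminins, had signals of 329.3 to 383.9 in the junction, 311.3 to 336.3 in the forestomach and 323.4 to 383.7 in the corpus, and passed in 0 of the 3 comparisons. Lama1 and Lamc3 were dim. Lama1 stayed between 4.8 and 42.7 on every array, and was called higher in the forestomach than in the corpus only without corpus array 1 (adjusted p = 0.0489). Lamc3 was above the filter level on 3 junction arrays, 0 forestomach arrays and 1 corpus array, with a junction minus forestomach difference of 1.05 ± 0.42 (SE; adjusted p = 0.074). Its corpus signals were 33, 75.7 and 11.2. Without corpus array 2, Lamc3 was called higher in the junction than in the corpus (adjusted p = 0.0435) and than in the forestomach (adjusted p = 0.0139), and without corpus array 3 lower in the forestomach than in both (adjusted p = 0.0189 against the corpus). Over the 10 laminin genes together, 1 was higher and 0 lower between junction and corpus, 1 was higher and 4 lower between junction and forestomach, and 6 were higher and 1 lower between forestomach and corpus, where their median log2 difference was 0.63. The called shares of 10%, 50% and 70% stood beside 25.0%, 44.6% and 59.9% of all genes.

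**Figure D2:**
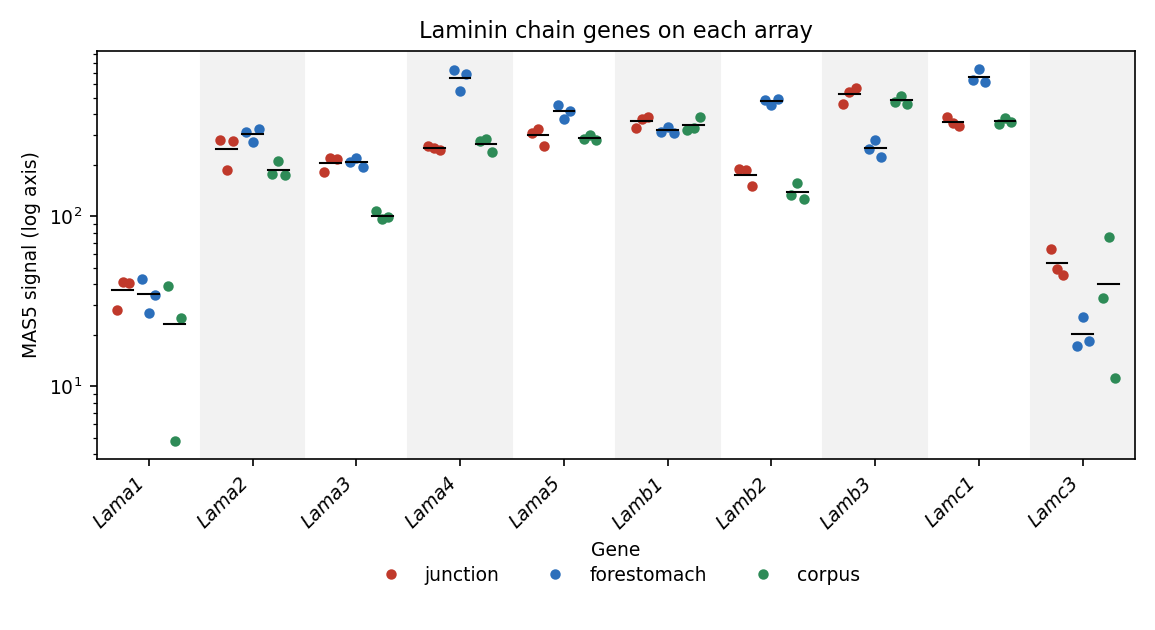
MAS5 signal (log axis) of the 10 laminin chain genes on the 3 junction, 3 forestomach and 3 corpus arrays, with a bar at each zone's mean. Each gene is shown by its brightest probe set. Lamb2, Lama4 and Lamc1 stand higher in the forestomach, Lamb3 lower, and Lama3 is high in both junction and forestomach. Heights of different genes are not comparable.

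Over the 25 integrin subunits, 4 were higher and 1 lower in the junction than in the corpus, 5 higher and 7 lower than in the forestomach, and 8 higher and 3 lower in the forestomach than in the corpus. Of the 5 laminin receptor subunits, 1 was higher and 0 lower in the junction than in the corpus, 2 higher and 2 lower than in the forestomach, and 1 higher and 2 lower in the forestomach than in the corpus. In the same order, 20%, 48% and 44% of the integrin subunits and 20%, 80% and 60% of the laminin receptor subunits were called. All genes gave 25.0%, 44.6% and 59.9%. Itga6, the alpha subunit of the hemidesmosome integrin and also a partner of Itgb1, had signals of 1980.3, 1688.3 and 2052.2 on the junction arrays, 923.4, 976.2 and 900.6 on the forestomach arrays and 1767, 1918.7 and 1713.2 on the corpus arrays. The forestomach arrays were lowest, and junction and corpus overlapped. Itga6 was higher in the junction than in the forestomach by 1.02 ± 0.10 on the log2 scale (SE; adjusted p = 8.4e-05), 2.03-fold, and lower in the forestomach than in the corpus by 1.92-fold (adjusted p = 6.1e-05). The second Itga6 probe set had 1087.4, 1152.2 and 1168.5 on the junction arrays, 396.2, 429.6 and 287.3 on the forestomach arrays and 973.2, 1311.1 and 1042.2 on the corpus arrays. It went the same way, with larger log2 differences of 1.61 for junction minus forestomach and -1.56 for forestomach minus corpus. Itga6 kept both calls in all 23 alternatives, which set no minimum log2 difference.

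Itgb4, the beta subunit that pairs only with Itga6, had 500.3, 554 and 529.1 on the junction arrays, 388.5, 305.6 and 260.3 on the forestomach arrays and 313.5, 343.9 and 349.1 on the corpus arrays. All junction arrays lay above all arrays of both neighbours. Itgb4 was 1.56-fold higher in the junction than in the corpus, a difference of 0.64 ± 0.14 on the log2 scale (SE; adjusted p = 0.0115), and 1.66-fold higher than in the forestomach, a difference of 0.73 ± 0.14 on the log2 scale (SE; adjusted p = 0.00297). Forestomach and corpus differed by -0.09 (adjusted p = 0.597). The junction minus corpus call was lost without series 2 (adjusted p = 0.127) and without series 3 (adjusted p = 0.0613), and the junction minus forestomach call without series 2 (adjusted p = 0.0572) and without forestomach arrays 2 and 3 (adjusted p = 0.0564).

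Itga3, which pairs with Itgb1 and binds the same laminins, had 353.3, 352 and 287.3 on the junction arrays, 261.7, 306.9 and 246.3 on the forestomach arrays and 362.8, 351.7 and 353.9 on the corpus arrays. It was 1.31-fold lower in the forestomach than in the corpus (adjusted p = 0.0189) and differed from the forestomach in the junction by 0.28 (adjusted p = 0.0859). The forestomach minus corpus call was lost with median centring (adjusted p = 0.0611), without corpus array 1 (adjusted p = 0.0528), without forestomach array 1 or 3 (adjusted p = 0.0569 and 0.0666), without series 1 or 3 (adjusted p = 0.137 and 0.0857) and without forestomach arrays 2 and 3 (adjusted p = 0.0642). The junction minus forestomach difference of Itga3 passed without forestomach array 2 (adjusted p = 0.0411) and without junction array 3 (adjusted p = 0.0341). One of its 2 dimmer probe sets also differed between forestomach and corpus, by -0.96 (adjusted p = 0.0095 over all probe sets), and between junction and forestomach, by 0.80 (adjusted p = 0.0299).

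Itgb1, the common beta subunit of matrix receptors, had 790.7, 1001.6 and 707.9 on the junction arrays, 965.5, 1190 and 1145.1 on the forestomach arrays and 827.6, 938.8 and 807.6 on the corpus arrays on its brightest probe set. Junction and forestomach arrays overlapped. It was 1.32-fold lower in the junction than in the forestomach (adjusted p = 0.0497), a call that 14 of 23 alternatives did not give. The omission of forestomach arrays 2 and 3 together was among these, with a log2 difference of -0.22. Others were the omissions of series 1 and of series 3 (adjusted p = 0.132 and 0.312) and of junction array 1 or 3 (adjusted p = 0.123 and 0.15). The call was also lost without forestomach array 2 or 3 (adjusted p = 0.135 and 0.125) and without corpus array 1, 2 or 3 (adjusted p = 0.0672, 0.0575 and 0.0644). Without series 2 the call held (adjusted p = 0.046). The forestomach minus corpus difference was 0.35 (adjusted p = 0.064) and passed in 8 of 23 alternatives, among them without forestomach array 1 (adjusted p = 0.0446) and without junction array 2 (adjusted p = 0.0332). Another Itgb1 probe set had 527.2, 614.3 and 551.9 on the junction arrays, 923.4, 1067.9 and 1009.9 on the forestomach arrays and 488.9, 548.4 and 520.6 on the corpus arrays, where the forestomach arrays lay above all others and junction and corpus overlapped. In the fit over all probe sets it was higher in the forestomach than in the corpus by 0.93 (adjusted p = 0.000113) and lower in the junction than in the forestomach by 0.82 (adjusted p = 0.000534) on the log2 scale.

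Itga7, the laminin receptor of muscle, had 103.1, 98.7 and 58 on the junction arrays, 157.8, 195.7 and 127 on the forestomach arrays and 101.2, 111 and 84.8 on the corpus arrays. The forestomach arrays were the highest. It was 1.55-fold higher in the forestomach than in the corpus (adjusted p = 0.0363) and 1.78-fold lower in the junction than in the forestomach (adjusted p = 0.015). The forestomach minus corpus call of Itga7 was lost without the filter (adjusted p = 0.0546), without corpus array 1 or 3 (adjusted p = 0.0704 and 0.109), without forestomach array 1 or 2 (adjusted p = 0.0774 and 0.118) and without series 1 or 2 (adjusted p = 0.133 and 0.141). The junction minus forestomach call was lost without forestomach array 2 (adjusted p = 0.0515) and without series 1 or 2 (adjusted p = 0.0655 and 0.0779). Without forestomach arrays 2 and 3 together, both were lost (adjusted p = 0.139 and 0.0888).

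Of 6 hemidesmosome partners of these receptors, 4 were higher and 1 lower in the junction than in the corpus, 0 were higher and 1 lower in the junction than in the forestomach, and 5 were higher and 0 lower in the forestomach than in the corpus. The called shares of 83.3%, 16.7% and 83.3% stood beside 25.0%, 44.6% and 59.9% of all genes, and the medians were 2.79, -0.22 and 2.86 on the log2 scale. Krt14, a basal cell keratin, had mean signals of 6049 ± 1045 in the junction, 6019.7 ± 653 in the forestomach and 57.2 ± 22.2 in the corpus (SD, n = 3 each). Krt5, its keratin partner, had 5652 ± 863 in the junction, 5278 ± 557 in the forestomach and 149.6 ± 63.8 in the corpus (SD, n = 3 each). Col17a1, the transmembrane collagen of hemidesmosomes, had 861 ± 232 in the junction, 1167 ± 63.6 in the forestomach and 9.53 ± 10.5 in the corpus (SD, n = 3 each), which in the corpus was below the filter level on all 3 arrays. Plec, the plectin gene, was 1.28-fold higher in the junction than in the corpus (adjusted p = 0.0472), and Cd151, a tetraspanin bound to laminin receptors, was 1.49-fold higher in the forestomach than in the corpus (adjusted p = 0.00324). Dst, the dystonin gene, was the exception, 1.34-fold lower in the junction than in the corpus (adjusted p = 0.0192) and 1.59-fold lower than in the forestomach (adjusted p = 0.000969). Of the members in this adhesion complex, Lama3 shared the high level of Krt5, Krt14 and Col17a1 in the forestomach, whereas Itga6 and Lamb3 were lower there than in the corpus and Itgb4 did not pass. Lama3 was lowest in the corpus, as the squamous basal cell sums were, and the part of squamous cells in its level was not tested.

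The 3 collagen receptor subunits pair with Itgb1, and 0 of them passed between junction and corpus on their brightest probe sets, against 25.0% of all genes. Itga1, which binds collagen IV and is abundant on smooth muscle, had 222.7, 247 and 199.3 on the junction arrays, 423.8, 598.1 and 466.2 on the forestomach arrays and 231.6, 387.2 and 229.1 on the corpus arrays. The forestomach arrays were higher than all others, and corpus array 2 stood above the other corpus arrays. Itga1 was 1.76-fold higher in the forestomach than in the corpus (adjusted p = 0.00979) and 2.16-fold lower in the junction than in the forestomach (adjusted p = 0.00313). The forestomach minus corpus call was lost without series 1 (adjusted p = 0.0602) and without series 3 (adjusted p = 0.0837), and both calls without forestomach arrays 2 and 3 (adjusted p = 0.148 and 0.0708). The second Itga1 probe set had 64.2, 59.8 and 48 on the junction arrays, 174, 155.9 and 120.2 on the forestomach arrays and 98.4, 136.6 and 87.9 on the corpus arrays. It was lower in the junction than in the corpus by 0.79 on the log2 scale (adjusted p = 0.0221 over all probe sets), without overlap of the arrays, and lower than in the forestomach by 1.24 (adjusted p = 0.00116). Its forestomach minus corpus difference was 0.45 (adjusted p = 0.0757). Itga2, a collagen receptor of epithelium and platelets, was dim, with 60.3, 32 and 53.5 on the junction arrays, 26.6, 20.3 and 14.5 on the forestomach arrays and 48, 33.6 and 23.2 on the corpus arrays, and 0 forestomach arrays were above the filter level. It was 1.91-fold higher in the junction than in the forestomach (adjusted p = 0.0185), a call lost without forestomach array 3 (adjusted p = 0.0649), junction array 1 (adjusted p = 0.0664), junction array 3 (adjusted p = 0.0571), series 3 (adjusted p = 0.12) or forestomach arrays 2 and 3 (adjusted p = 0.248). Without corpus array 3, Itga2 was also called lower in the forestomach than in the corpus (adjusted p = 0.0441). Itga10, a collagen receptor of cartilage, averaged 23.6 ± 13.9 in the junction, 40.7 ± 0.681 in the forestomach and 44.4 ± 7.84 in the corpus (SD, n = 3 each). Its junction minus corpus difference was -0.77 (adjusted p = 0.0639) and its junction minus forestomach difference -0.68 (adjusted p = 0.0651), and both passed without junction array 1 (adjusted p = 0.00616 and 0.00509).

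Among subunits of the receptors that recognise fibronectin, vitronectin, nephronectin, tenascin and latent TGF-beta, 2 of 9 were higher and 1 lower in the junction than in the corpus, 1 was higher and 4 lower than in the forestomach, and 6 were higher and 1 lower in the forestomach than in the corpus. The called shares of 33.3%, 55.6% and 77.8% stood beside 25.0%, 44.6% and 59.9% of all genes. Itgb6, the epithelial partner of Itgav that binds latent TGF-beta, was the member with the largest fitted difference. Its signals were 113.7, 98.9 and 108.5 on the junction arrays, 34, 30.9 and 25.9 on the forestomach arrays and 143.3, 148.9 and 144.4 on the corpus arrays. The 3 zones did not overlap, with the corpus highest and the forestomach lowest. Itgb6 was 3.89-fold lower in the forestomach than in the corpus, a difference of -1.96 ± 0.10 on the log2 scale (SE; adjusted p = 6.83e-07), and 2.92-fold higher in the junction than in the forestomach, a difference of 1.55 ± 0.10 on the log2 scale (SE; adjusted p = 8e-06). Only 2 of 3 forestomach arrays reached the filter level, so these folds are compressed by the pseudocount of 9.8. The second Itgb6 probe set had 77.3, 74.8 and 74.9 on the junction arrays, 15.3, 21.4 and 1.6 on the forestomach arrays and 82, 121.9 and 119.7 on the corpus arrays. It gave the same order of forestomach and corpus. Forestomach array 1, lowest in glandular markers, had an Itgb6 signal of 34, the highest of the 3. Itgb6 was also 1.33-fold lower in the junction than in the corpus (adjusted p = 0.0188), but 10 of 23 alternatives did not give this call. They were median centring (adjusted p = 0.0724), the mean of probe sets (adjusted p = 0.157), the trend and robust options (adjusted p = 0.0794), and the omission of corpus array 1 (adjusted p = 0.0509), corpus array 2 (adjusted p = 0.0554), junction array 2 (adjusted p = 0.0667), junction array 3 (adjusted p = 0.0508) or series 1, 2 or 3 (adjusted p = 0.069, 0.179 and 0.0991).

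Itgb8, another partner of Itgav that binds latent TGF-beta, ran the other way. It had 88.3, 68.8 and 80.5 on the junction arrays, 80, 74.9 and 73.5 on the forestomach arrays and 24.3, 38.6 and 42.5 on the corpus arrays. Junction and forestomach overlapped and both stood above the corpus, where 2 of 3 arrays reached the filter level. Itgb8 was 2.01-fold higher in the junction than in the corpus, adjusted p = 0.00292, and 1.94-fold higher in the forestomach than in the corpus (adjusted p = 0.000964). These calls of Itgb8 held in all 22 alternatives that kept the gene. Itgav, the alpha subunit shared by both, had 1557.7, 1625.7 and 1606.3 on the junction arrays, 2229.6, 2145.8 and 2342.6 on the forestomach arrays and 1358.4, 1259.4 and 1367.3 on the corpus arrays. The 3 zones did not overlap. It was 1.68-fold higher in the forestomach than in the corpus (adjusted p = 6.39e-05) and 1.40-fold lower in the junction than in the forestomach (adjusted p = 0.00152), although with the mean of its kept probe sets the junction minus forestomach difference did not pass (adjusted p = 0.119). Its junction minus corpus difference was 0.26 ± 0.08 (SE; adjusted p = 0.0459) and lost its call in 18 of 23 alternatives, the omission of every single array and every series among them, with adjusted p from 0.0547 to 0.606. With the series as a block it also did not pass (adjusted p = 0.0627). Itgb5, a vitronectin receptor subunit, had 891.3 to 931.5 in the junction, 794.9 to 879.3 in the forestomach and 709.2 to 809.7 in the corpus and passed in 0 of the 3 comparisons on its brightest probe set. With median centring its junction minus corpus difference passed (adjusted p = 0.0407). A dimmer Itgb5 probe set had 531.2, 675.6 and 662.2 on the junction arrays, 665, 677.6 and 656.6 on the forestomach arrays and 466.9, 475.3 and 394.6 on the corpus arrays. It was higher in the junction than in the corpus by 0.47 (adjusted p = 0.0321 over all probe sets) and in the forestomach than in the corpus by 0.57 (adjusted p = 0.00452), both on the log2 scale. The other 2 dimmer Itgb5 probe sets did not pass.

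Itga8, a partner of Itgb1 in mesenchyme and smooth muscle that binds nephronectin, had 203.5, 217.8 and 200 on the junction arrays, 504.7, 534.2 and 636.1 on the forestomach arrays and 196.7, 183.9 and 185.1 on the corpus arrays. The forestomach arrays stood apart from the other 6. Itga8 was 2.85-fold higher in the forestomach than in the corpus, a difference of 1.51 ± 0.10 on the log2 scale (SE; adjusted p = 3.64e-06), and 2.61-fold lower in the junction than in the forestomach, a difference of -1.38 ± 0.10 on the log2 scale (SE; adjusted p = 1.77e-05), in all 23 alternatives. Itgb3, the beta subunit of a vitronectin receptor and of the platelet fibrinogen receptor, had 67.8, 80.9 and 57.7 on the junction arrays, 128.7, 133.3 and 148 on the forestomach arrays and 49.7, 81.7 and 42.7 on the corpus arrays. Its forestomach arrays were above all others. It was 2.22-fold higher in the forestomach than in the corpus (adjusted p = 0.0012) and 1.87-fold lower in the junction than in the forestomach (adjusted p = 0.00664), the second call being lost without series 1 (adjusted p = 0.0629), series 3 (adjusted p = 0.0562) or forestomach arrays 2 and 3 (adjusted p = 0.102). Itga2b, the platelet partner of Itgb3, averaged 99.3 ± 28.6 in the junction, 129 ± 6.65 in the forestomach and 89 ± 14.7 in the corpus (SD, n = 3 each), with a forestomach minus corpus difference of 0.50 ± 0.20 (SE; adjusted p = 0.0578) that passed in 8 of 23 alternatives, among them without series 1 (adjusted p = 0.0286) and without junction array 1 or 2 (adjusted p = 0.0105 and 0.0483). Platelet and megakaryocyte markers summed to 705.5 to 873.4 in the junction, 797.5 to 1028.1 in the forestomach and 303.8 to 459.5 in the corpus, and their part in the levels of Itgb3 and Itga2b was not tested.

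Itga5, the alpha subunit of the main fibronectin receptor, had 87.8, 122.3 and 101.6 on the junction arrays, 136.3, 255.6 and 125.3 on the forestomach arrays and 85.1, 86 and 88.1 on the corpus arrays. Forestomach array 2 stood far above the other 8 arrays. Itga5 was 1.81-fold higher in the forestomach than in the corpus (adjusted p = 0.0135), a call lost without series 1 (adjusted p = 0.051). Its junction minus forestomach difference was -0.62 (adjusted p = 0.0632) and passed without forestomach array 3 (adjusted p = 0.0342) and without series 2 (adjusted p = 0.0499). Itga9, a tenascin receptor subunit of muscle and lymphatic vessels, had 99.4, 114.4 and 94.2 on the junction arrays, 140.1, 176.8 and 137.8 on the forestomach arrays and 109.6, 107.2 and 91.5 on the corpus arrays. It was 1.43-fold higher in the forestomach than in the corpus (adjusted p = 0.0073) and 1.43-fold lower in the junction than in the forestomach (adjusted p = 0.0104). The junction minus forestomach call of Itga9 was lost without series 1 (adjusted p = 0.0711) or series 3 (adjusted p = 0.0527), and both calls without forestomach arrays 2 and 3 (adjusted p = 0.106 and 0.0816). Itga8, Itga1, Itga7, Itga9 and Itgav stood highest on the forestomach arrays, as the smooth muscle sums did, and the part of muscle in their levels was not tested.

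Of 8 subunits known mainly from leukocytes, 1 was higher and 0 lower in the junction than in either neighbour, and 0 passed between forestomach and corpus. Called were 12.5% between junction and corpus, 12.5% between junction and forestomach and 0% between forestomach and corpus. The shares of all genes were 25.0%, 44.6% and 59.9%. Itgax, the CD11c subunit of dendritic cells and some macrophages, had 116.8, 154.4 and 135.8 on the junction arrays, 57.9, 82.2 and 40.7 on the forestomach arrays and 59.9, 66.6 and 55.1 on the corpus arrays. Every junction array lay above every array of both neighbours. Itgax was 2.06-fold higher in the junction than in the corpus, a difference of 1.04 ± 0.21 on the log2 scale (SE; adjusted p = 0.00716), and 2.13-fold higher than in the forestomach, a difference of 1.09 ± 0.21 on the log2 scale (SE; adjusted p = 0.00276). Without series 1 the junction minus corpus call was lost (adjusted p = 0.0566). Itgb2, the beta subunit it pairs with, had 172.6, 147.9 and 146.1 on the junction arrays, 164.6, 165.7 and 97.8 on the forestomach arrays and 97.5, 110.7 and 95.1 on the corpus arrays. Junction and forestomach overlapped, and the junction arrays lay above the corpus arrays. Its junction minus corpus difference was 0.58 ± 0.19 (SE; adjusted p = 0.0545), on the edge of the threshold, and passed in 9 of 23 alternatives, among them without forestomach array 3 (adjusted p = 0.00731). Without that array the forestomach minus corpus difference of Itgb2 also passed (adjusted p = 0.00205). Itgal, the lymphocyte subunit that also pairs with Itgb2, averaged 80.2 ± 3.59 in the junction, 47.2 ± 18.5 in the forestomach and 70.1 ± 21.9 in the corpus (SD, n = 3 each), with a junction minus forestomach difference of 0.71 ± 0.26 (SE; adjusted p = 0.0533) that passed without corpus array 1 or 2, forestomach array 1 or series 1 (adjusted p = 0.0486, 0.0397, 0.0213 and 0.0487).

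Itga4, Itgae, Itgam, Itgb2l and Itgb7 passed in 0 of the 3 comparisons on their brightest probe sets, with zone means from 17.6 to 109. Dimmer probe sets of Itga4 and Itgae passed in the fit over all probe sets, opposite in sign to the brightest. One Itga4 probe set had 35.3, 35.3 and 25.3 on the junction arrays, 23.5, 18.7 and 1.7 on the forestomach arrays and 69.5, 33.2 and 64.5 on the corpus arrays. Its forestomach minus corpus difference was -1.51 (adjusted p = 0.0109), against 0.31 on the brightest. An Itgae probe set had 59.4, 41.9 and 67 on the junction arrays, 31.3, 29.3 and 29.3 on the forestomach arrays and 42.8, 48.8 and 61.2 on the corpus arrays. It differed by -0.60 for forestomach minus corpus (adjusted p = 0.015) and by 0.71 for junction minus forestomach (adjusted p = 0.0102), against 0.47 and -0.37 on the brightest. Probe sets of Itga4 and of Itgae thus differ in sign, and no direction is given for these genes. Itgb2l and Itgb7 were near or below the filter level in forestomach and corpus. Itga4, a subunit of lymphocytes, averaged 83.4 ± 23.7 in the junction, 109 ± 9.84 in the forestomach and 86.5 ± 12.3 in the corpus (SD, n = 3 each), and on its brightest probe set passed as lower in the junction than in the forestomach without junction array 2 (adjusted p = 0.0114). The 11 leukocyte markers tested summed to 4150.2 to 4302.4 in the junction, 3385.8 to 4568.3 in the forestomach and 2391.2 to 2785 in the corpus. Of the 11, 7 were higher in the junction than in the corpus, 63.6% against 13.2% of all genes. Between junction and forestomach 0 passed, against 44.6% of all genes. Itgax was called higher in the junction in each single comparison with a neighbour. It did not pass the joint test against both neighbours described below (adjusted p = 0.129). The part of leukocyte numbers in the Itgax level was not tested.

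**Figure D3:**
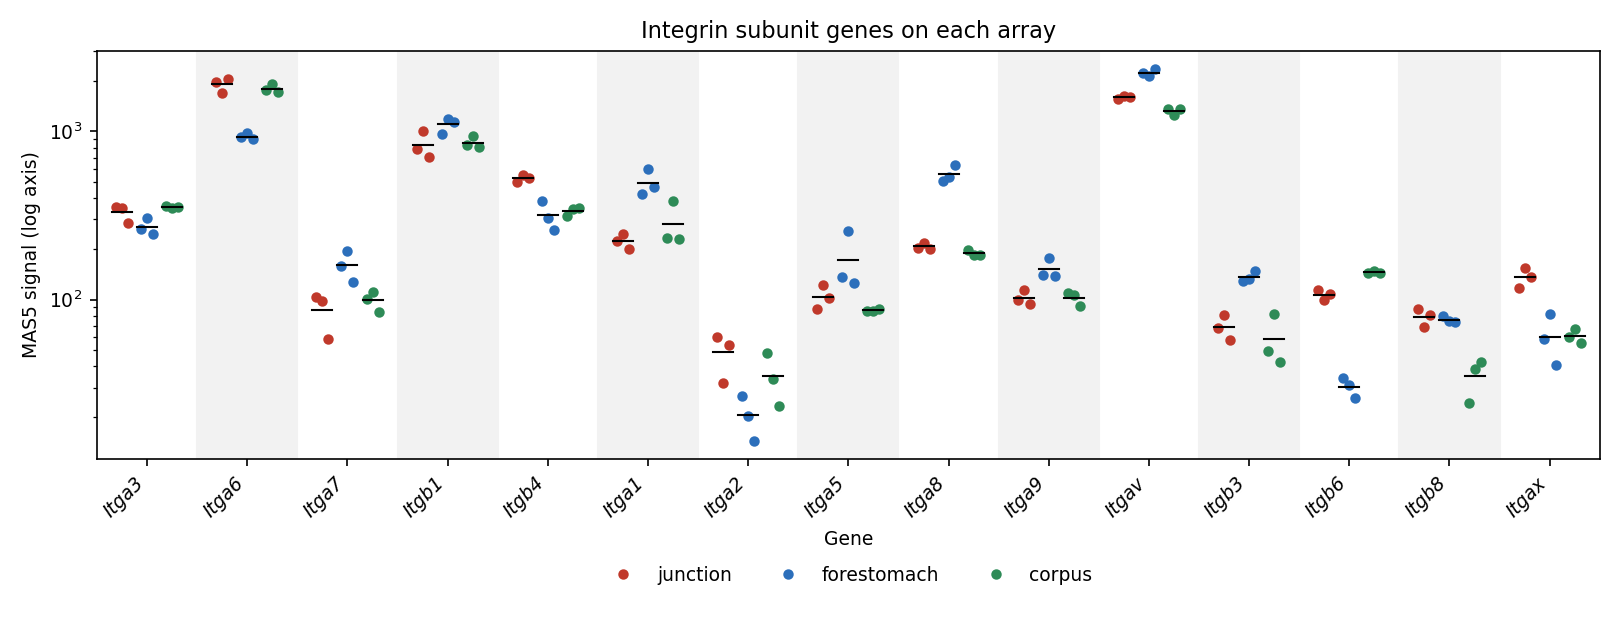
MAS5 signal (log axis) of integrin genes on the 3 junction, 3 forestomach and 3 corpus arrays, with a bar at each zone's mean. The genes are Itga3, Itga6, Itga7, Itgb1, Itgb4, Itga1, Itga2, Itga5, Itga8, Itga9, Itgav, Itgb3, Itgb6, Itgb8 and Itgax. The other integrin members are not drawn. Itgb6 and Itga6 are lowest in the forestomach, Itga8 and Itgb3 highest there, Itgb8 is lowest in the corpus, and Itgb4 and Itgax are highest in the junction; heights of different genes are not comparable.

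To ask whether a gene stood above or below both neighbours, the larger of the 2 junction p-values was taken and adjusted over all genes. By this test in limma 0 of 35 members were above both and 0 below both, against 0.198% and 0.0147% of all genes tested. At an unadjusted p under 0.05, 2 members were above, Itgax (adjusted p = 0.129) and Itgb4 (adjusted p = 0.187), and Itga10 was below. With limma's trend and robust options Itgb4 passed (adjusted p = 0.0477), and in the other alternatives 0 members passed. Itgax and Itgb4 each passed both single comparisons with the neighbours and did not pass this joint test.

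The place of the junction between its neighbours was read in each series as the percent of the way from the corpus signal, at 0%, to the forestomach signal, at 100%, for the 18 members that differed between those 2 zones. The choice of these 18 used the same arrays, so the positions are a description. They were read on each gene's brightest probe set. Over all genes higher in the forestomach the median position was 23.6%, 34.5% and 34.8% in series 1, 2 and 3 (4085 genes), and over genes lower there 35.3%, 46.0% and 48.7% (4083 genes). Itgb8, at 114.9%, 83.2% and 122.6%, and Lama3, at 73.4%, 98.5% and 123.2%, lay near or beyond the forestomach end. The squamous basal cell markers had medians of 70.7%, 67.7% and 95.2%. Lamb2, at 16.4%, 9.84% and 6.52%, Itga8, at 2.21%, 9.68% and 3.3%, Lama4, at -4.07%, -11.8% and 1.42%, and Lamc1, at 11.9%, -7.5% and -5.51%, lay near the corpus end in every series. So did the smooth muscle markers, with medians of 8.38%, -4.27% and -0.721%. Itgb6, at 27.1%, 42.4% and 30.3%, and Itgav, at 22.9%, 41.3% and 24.5%, fell between the ends in all 3 series. Lama2, at 77%, -38.9% and 67.1%, and Itga6, at -25.3%, 24.4% and -41.7%, ranged widely between the series.

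**Figure D4:**
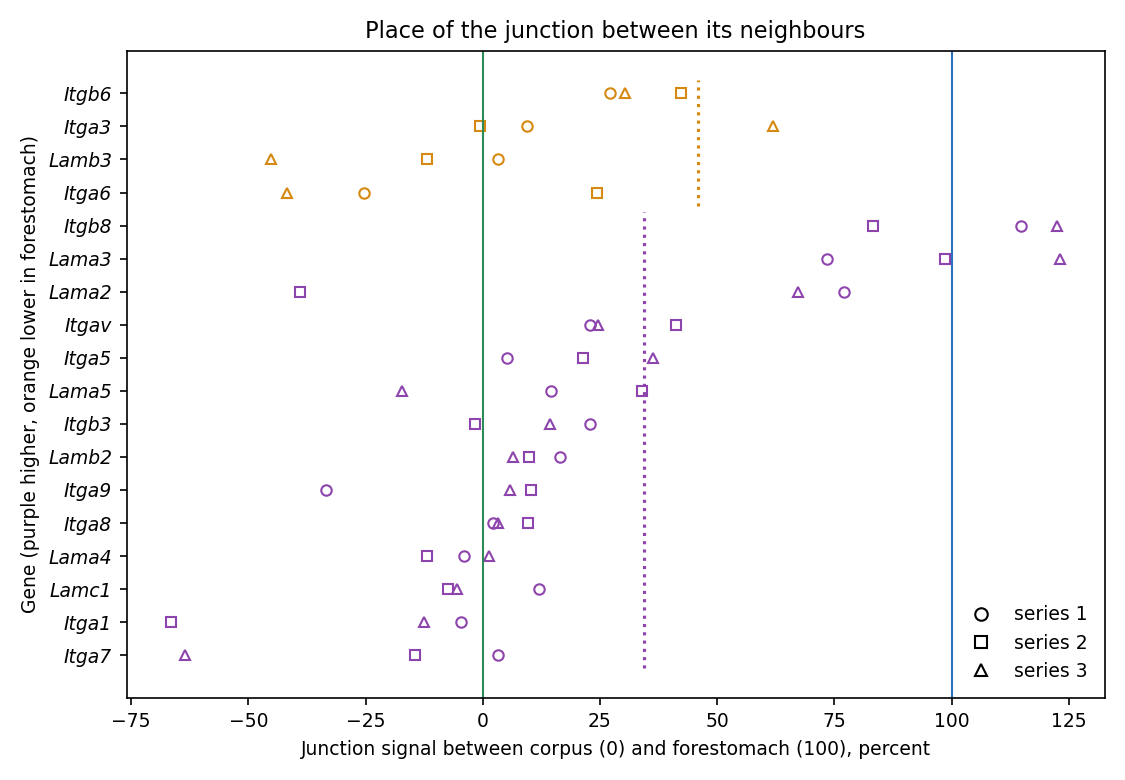
Position of the junction signal between corpus (0%) and forestomach (100%) for the 18 members called between these zones, with 1 point per series; each dotted line gives the middle of the 3 series' medians over all genes called in that direction. Itgb8 and Lama3 sit towards the forestomach, and Lamb2, Itga8, Lama4 and Lamc1 sit at the corpus end.

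Of 25 basement membrane partners of the laminins, 5 were higher and 6 lower in the junction than in the corpus, 5 higher and 14 lower than in the forestomach, and 13 higher and 5 lower in the forestomach than in the corpus. In the same order, 44%, 76% and 72% were called, where all genes gave 25.0%, 44.6% and 59.9%. Their median log2 differences were 0.01, -0.70 and 0.41, against -0.05, -0.04 and -0.01 over all genes. Egfl6, an EGF-repeat protein of the basement membrane, averaged 579 ± 200.3 in the junction, 1295 ± 221 in the forestomach and 14.5 ± 10.5 in the corpus (SD, n = 3 each), and its mean corpus signal was below the filter level. Smoc2, a calcium-binding matrix protein, averaged 431 ± 21.9 in the junction, 791 ± 9.96 in the forestomach and 161 ± 7.22 in the corpus (SD, n = 3 each), and its relative Smoc1 221 ± 28.8 in the junction, 37.8 ± 15.4 in the forestomach and 230.0 ± 39.3 in the corpus (SD, n = 3 each). The collagen IV genes moved both ways. Col4a6, a chain of smooth muscle and epithelial basement membranes, was 3.59-fold higher in the forestomach than in the corpus (adjusted p = 2.88e-06) and 2.88-fold lower in the junction than in the forestomach (adjusted p = 2.49e-05). Col4a3 and Col4a4, which assemble together, were 2.82-fold and 2.63-fold lower in the junction than in the corpus (adjusted p = 0.0224 and 0.00782). Pxdn, the peroxidase that cross-links collagen IV, was 2.82-fold higher in the forestomach than in the corpus (adjusted p = 2.81e-05).

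The list of integrin adaptors joined cytoplasmic proteins that connect beta subunits to actin with other integrin-binding proteins, such as Sharpin, Itgb1bp1 and Itgb3bp. It held 25 tested genes. Of these, 2 were higher and 3 lower in the junction than in the corpus, 4 higher and 13 lower than in the forestomach, and 13 higher and 4 lower in the forestomach than in the corpus. The shares called were 20%, 68% and 68%, against 25.0%, 44.6% and 59.9% of all genes, and the median log2 differences -0.16, -0.47 and 0.35, against -0.05, -0.04 and -0.01. Fermt3, a kindlin known from blood cells, averaged 861 ± 173 in the junction, 2175 ± 177 in the forestomach and 169.7 ± 15.5 in the corpus (SD, n = 3 each), 12.2-fold higher in the forestomach than in the corpus (adjusted p = 2.37e-07) and 4.80-fold higher in the junction than in the corpus (adjusted p = 1.39e-05). Fermt2, the kindlin of muscle and stroma, averaged 865 ± 141 in the junction, 2697 ± 256 in the forestomach and 990.5 ± 110.1 in the corpus (SD, n = 3 each). Tns4, a tensin of epithelium, was 5.88-fold higher in the junction than in the corpus (adjusted p = 0.000168) and 5.25-fold higher in the forestomach than in the corpus (adjusted p = 5.03e-05). Flna, the filamin A gene, Lims2 and Tgfb1i1, the focal adhesion proteins PINCH2 and Hic-5, were lower in the junction than in the forestomach by 2.74-fold, 2.68-fold and 2.62-fold (adjusted p = 6.32e-05, 0.000144 and 8.85e-05). Tns2 and Pxn, the tensin 2 and paxillin genes, were lower in the junction than in the corpus by 1.64-fold and 1.32-fold (adjusted p = 0.00971 and 0.0353).

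Of 24 other integrin ligands, 8 were higher and 2 lower in the junction than in the corpus, 4 higher and 7 lower than in the forestomach, and 12 higher and 6 lower in the forestomach than in the corpus. That is 41.7%, 45.8% and 75% called, beside 25.0%, 44.6% and 59.9% of all genes, with medians of 0.24, -0.33 and 0.66. Npnt, the nephronectin that Itga8 binds, averaged 445 ± 55.1 in the junction, 1519.9 ± 74.4 in the forestomach and 287 ± 8.43 in the corpus (SD, n = 3 each), and like Itga8 was lower in the junction than in the forestomach, by 3.38-fold (adjusted p = 5.39e-06). Vtn, the vitronectin gene, went the other way and averaged 149.8 ± 22 in the junction, 53.2 ± 8.03 in the forestomach and 243 ± 40.2 in the corpus (SD, n = 3 each), lower in the forestomach than in the corpus (adjusted p = 7.96e-06). Tnc, the tenascin C gene, was 2.24-fold higher in the junction than in the corpus (adjusted p = 0.0153) and 3.13-fold higher in the forestomach than in the corpus (adjusted p = 0.000795). Thbs1 and Icam1, coding for thrombospondin 1 and for a leukocyte ligand on endothelium, were higher in the junction than in the corpus by 2.45-fold and 1.79-fold (adjusted p = 0.00457 and 0.00546). Nrp1, a receptor that also binds integrins, was 1.82-fold lower in the junction than in the corpus (adjusted p = 0.0106). Mfge8, a ligand of Itgav dimers on phagocytes, was 2.31-fold higher in the junction than in the forestomach (adjusted p = 3.29e-05), and Col1a1, a collagen I chain, was 2.19-fold lower (adjusted p = 0.00235).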

How the data were processed

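Biotinylated cRNA from pooled stomach stripes was hybridised to 9 Affymetrix mouse arrays, and 1 table of intensity values was deposited. Per the submitters' processing notes, the authors made these intensities with MAS5, whose version is not given in the sources used here, and each array has a trimmed mean of 200. Array medians were 47.9 to 57.1. The number of arrays, 3 per zone, limits the precision.

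Probe sets were named from the platform annotation, with 34958 carrying 1 symbol, 932 several and 9211 none, and symbols updated through gene identifiers. Probe sets above their array's 40th percentile (29.0 to 36.5) on at least 3 arrays were kept, 29511 in all, and a gene with several was read from the one with the highest mean log2 signal. Analysis used log2(signal + 9.8), where 9.8 is the middle value of the 9 arrays' 20th percentiles. Fold changes are on that scale and understate changes of low genes. limma 3.58.1 in R 4.3.3 fitted 1 mean per zone over all 9 arrays (6 residual and 2.56 prior degrees of freedom). Figures used matplotlib 3.10.9 in Python 3.11.15. The code was tested on simulated data.

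The members, gene lists and tests were chosen with earlier results of these data known. Array values are given for Itga6, Itgb4, Itga3, Itgb1, Itgb6, Lama3 and Lamb3 in any case, and for up to 6 further members of each role group with the largest differences past the threshold whose arrays did not overlap. For each partner list up to 4 genes past the threshold are named in each comparison. Other members and Plec were named after their values were seen. Promoter sequences and motif shares came from RefSeq.

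The arrays of a series share their pooled mice, per the series' design text. Deviations from the zone means correlated at -0.029 to 0.12 within a series (mean 0.033, 9 pairs, 1 over 0.1) and at -0.016 on average between series (18 pairs). Alternatives added the series as a blocking term, changed the pseudocount, filter, scaling, probe set rule, moderation and arrays, and required a log2 difference of at least 1. Numbers of alternatives given for single genes leave out this last requirement and the fit of every probe set on its own. So do the counts of calls that held in every alternative fit.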

Additional observations from a re-analysis of the deposited data

How the results depend on the processing

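Counts of members were recomputed under each alternative setting, and 183 of 206 values stayed within 1.5 times the reported count. Among member genes, 92 of 2385 values lost their call, 65 gained one and 0 reversed. In every alternative fit, 2 of 6 calls between junction and corpus held, 7 of 17 between junction and forestomach and 10 of 18 between forestomach and corpus. For junction minus corpus, members called higher numbered 5, with 8 under median centring, 2 when a log2 difference of at least 1 was required and 3 to 5 when arrays or series were left out. Members called lower numbered 1, with 0 under median centring, 0 with the mean of probe sets, 0 with trend and robust moderation, 0 at a difference of at least 1, 2 when every probe set was tested on its own and 0 to 2 when arrays or series were left out. For junction minus forestomach, 6 were higher (5 to 8 when arrays or series were left out), and 11 were lower, with 4 at a difference of at least 1, 6 without forestomach replicates 2 and 3 together and 7 to 12 when arrays or series were left out. For forestomach minus corpus, 14 were higher (10 to 16) and 4 lower (3 to 6), with 4 and 1 at a difference of at least 1. Above both neighbours, 0 members passed, and 1 passed with trend and robust moderation. The higher threshold lowers counts by construction; for the other settings the cause was not tested. With the series as a replicate block, members called were 5 higher and 1 lower for junction minus corpus, 6 and 12 for junction minus forestomach and 15 and 4 for forestomach minus corpus, and the Itgav call between junction and corpus was lost (adjusted p = 0.0627). Alternatives chosen after seeing the data were the omission of forestomach replicates 2 and 3 together, above, and a wider naming rule with Itgbl1 and integrin-binding protein genes, which gave 6 higher and 1 lower, 8 and 12, and 15 and 5 in the same order. Where forestomach replicates 2 and 3 were both left out, the lone forestomach array was assumed to vary like those of the other zones. Signals near the filter level limit Itgb6 and Itga2 in the forestomach, Itgb8 in the corpus and Lama1, Lamc3, Itga10, Itgb2l and Itgb7 in most zones.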

Other observations

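Itgbl1, an integrin beta-like gene that encodes no receptor subunit and is outside the naming rule, was high in the junction. It averaged 85.3 ± 11.7 in the junction, 42.3 ± 9.3 in the forestomach and 35.8 ± 9.8 in the corpus (SD, n = 3 each), 2.11-fold higher in the junction than in the corpus (adjusted p = 0.00417) and 1.83-fold higher than in the forestomach (adjusted p = 0.00536), while the joint test against both neighbours gave an adjusted p of 0.178. Itgb1bp1, which codes for a protein that binds the tail of the Itgb1 subunit, was 1.53-fold higher in the forestomach than in the corpus (adjusted p = 0.00247) and 1.39-fold lower in the junction than in the forestomach (adjusted p = 0.0135). Itgb3bp was 1.88-fold lower in the forestomach than in the corpus (adjusted p = 0.00114). These genes were named after their values were seen.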
